A study of Mus musculus with 2 samples.

Results

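Autophagy genes were followed across 2 arrays that compared Lamtor1-deficient (KO) with wild-type (WT) mouse CD4+ T cells. The set is 38 genes that carry out macroautophagy, listed by name and grouped by the step at which their proteins act. Each gene was represented by its brightest probe, and 37 of the 38 had a probe well above background in at least 1 of the RNAs, of 14877 genes measured in all. Cells of both genotypes came from spleens of the strain C57BL/6J, were sorted magnetically as CD4+CD62L+, and were cultured for 5 days on plate-bound antibody to CD3 with antibody to CD28, IL-2 (50 ng/ml) and recombinant human TGFβ (1 ng/ml). Lamtor1 encodes a lysosomal membrane subunit of Ragulator, the complex that tethers the nutrient-sensing kinase complex mTORC1 to lysosomes. How the gene was deleted, in which cells, the age of the animals and whether animals were pooled are not given in the sources used here. The labels' extraction step speaks of naive cells, and the RNA is assumed here to be that of the cultures.

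There was 1 RNA extract per genotype. Both arrays carried the same pair of extracts, with KO in Cy5 on the first and in Cy3 on the second, and count as 1 replicate. No test was possible. The ± beside a log2 ratio (KO over WT) is the technical SD of the 2 arrays and holds no spread between animals or cultures. A gene was called higher or lower when both arrays showed a difference of 2-fold or more that way. In bulk RNA, fewer cells that express a gene and less RNA per cell cannot be told apart.

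Autophagy encloses cytoplasm in a double membrane, the autophagosome, and delivers it to the lysosome for breakdown. The Ulk1 kinase complex starts the process and is inhibited by mTORC1, a lipid kinase complex built on Becn1 and Pik3c3 marks the growing membrane, and a ubiquitin-like conjugation system attaches Atg8 proteins (the LC3 and GABARAP families) to it. Atg8 proteins bind receptors such as Sqstm1 (p62), which carry cargo in. In T cells autophagy is known to clear organelles and to support survival and memory.

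Lamtor1 itself gave normalised intensities of 270.0 (KO) and 1054 (WT) with KO in Cy5, and 281 and 1071 with KO in Cy3. This is 3.86-fold lower in KO (log2 ratio −1.95 ± 0.03). Its probe lies at chr7:109060334-109060393 (mm9), and whether that is inside the deleted part is not known here. Of the T cell markers, 10 of 10 were measured, with a median log2 ratio of −0.14: 3 were above 0 on both arrays, 5 below and 2 mixed, and Cd4 (−1.18) and Cd5 (−1.12) were lower in KO by the 2-fold rule. By this rule 2.46% of all measured genes were higher and 6.88% lower. Of the CD8 T and NK cell markers, 4 of the 8 measured were higher, and Cd8b1 was below 0 on both arrays (mean −0.55). Klrb1c and Tyrobp, among the 4, were well above background on 0 WT arrays, so they counted as measured through KO alone. The summed intensity of the 8 was 7932 and 8063 in KO against 3787 and 3662 in WT. Nkg7, not among the 4, held most of these sums (5441 and 5711 in KO, 2751 and 2659 in WT). Klrk1 and Ncr1 were not well above background. Of 12 myeloid markers 8 were measured and 3 were higher (Lyz1, S100a8 and S100a9), and Cst3 was below 0 on both arrays (mean −0.49). In WT, Lyz1 and S100a8 were well above background on 0 arrays and S100a9 on 1. These 3, and also Lyz2 and Fcgr3, counted as measured through KO alone, where they are high. The summed intensity of the 8 was 14016 and 12481 in KO against 9393 and 8588 in WT. Itgam, not among the 3, held much of these sums (9309 and 8275 in KO, 5526.5 and 5285.5 in WT). Cd14, Itgax, Adgre1 and Cd68 were not well above background. Of 7 B cell markers 2 were measured and neither passed 2-fold, and of 4 erythroid markers with a probe 1 was measured (Hbb-bt), which was lower in KO. The Hbb-bt probe lies 1.90 Mb from that of Lamtor1. In KO it was well above background on 0 arrays, so this gene counted as measured through WT alone. The part of these cells in the autophagy values below was not tested.

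The autophagy set differed by step. Gabarap and Map1lc3b, a pair of Atg8 genes, were the only members at least 2-fold higher in KO, and no member was 2-fold lower. That is 5.41% of the 37 measured members, where 2.46% of all measured genes were higher by this rule and 6.88% were lower. At 1.5-fold the members called were the same pair and none lower, against 6.78% and 13.5% of all genes. Most other members of initiation, nucleation, membrane supply and the receptors lay moderately above 0, and most members of lipid conjugation lay at or a little below 0.

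Over all 37 measured members the median log2 ratio was 0.22, against −0.02 over all measured genes. KO intensities lay above both WT intensities, without overlap, for 22 members (59.5%, against 35.5% of all measured genes) and below both for 10 (27% against 42%). The mean exceeded the technical SD in 28 members. A mean of at least 0.3 was seen in 17 members, a mean of −0.3 or less in 4 (Ambra1, Atg4c, Atg12 and Gabarapl1), and 16 lay between. These counts were not made over all measured genes, so they do not set the members apart. Pik3r4, at 0.30, lay above 78.2% of all measured genes, and Atg12, at −0.31, above 28.4%. The median technical SD was 0.12 for the members and 0.11 for all measured genes, so members with means near 0.1 cannot be placed on either side of 0 by these arrays.

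The level taken as 0 depends on the scaling. When each array was centred on its median in place of loess, the median of all measured genes moved to −0.37, and 12 members above 0 turned negative: Ulk1, Ulk2, Atg13, Pik3r4, Wipi2, Wdr45, Atg2a, Atg2b, Vmp1, Atg4b, Gabarapl2 and Tax1bp1. No member was then 2-fold higher or lower, where 0.746% and 5.92% of all genes were. Under either scaling 26 of 37 members lay above the all-gene median, though not all of them were the same genes. The change was not a constant shift. With median centring the dim probes of Optn and Map1lc3a moved little (−0.043 to −0.046 and 0.45 to 0.34). The bright probes of Gabarap and Tecpr1 moved more (1.20 to 0.58 and −0.21 to −0.82).

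**Figure D1:**
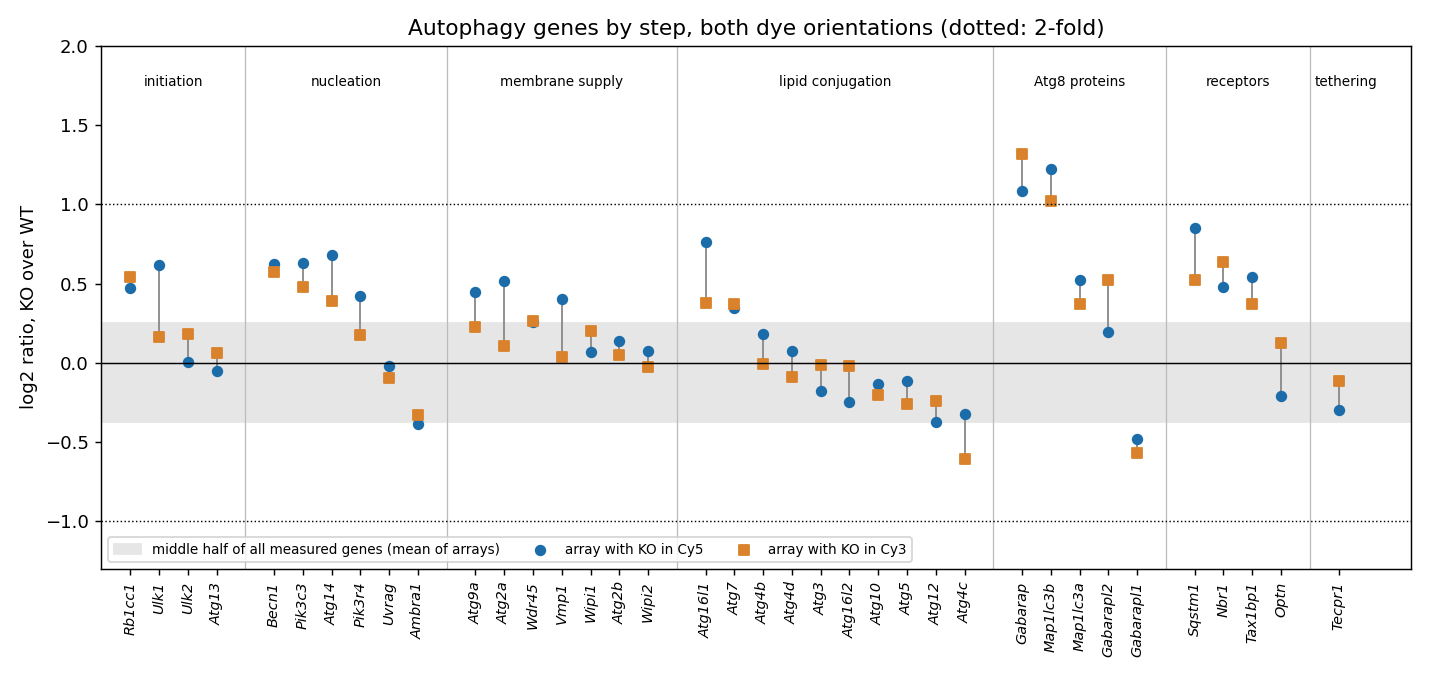
Log2 ratio (KO over WT) of the 37 measured autophagy genes by step, with circles for the array with KO in Cy5 and squares for the other; the grey band spans the 25th to 75th percentile of all measured genes (−0.37 to 0.25), and dotted lines mark 2-fold. Only Gabarap and Map1lc3b lie beyond 2-fold on both arrays, and 6 of 10 lipid conjugation genes lie below 0 on both.

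Initiation is the work of a kinase complex that mTORC1 restrains when nutrients are present. Of its 4 genes, 3 lay above 0 on both arrays, and the median ratio was 0.24. Rb1cc1 (FIP200), the scaffold of the complex, gave 231 (KO) and 167 (WT) with KO in Cy5 and 261 and 179 with KO in Cy3, a log2 ratio of 0.51 ± 0.05. Both KO values exceeded both WT values, and the second probe of the gene gave 0.26. Ulk1, the kinase itself, gave 2530.1 against 1649 and then 2076 against 1851. Its ratio was therefore 0.62 on one array and 0.17 on the other (mean 0.39 ± 0.32), the widest technical spread of all the members. The related kinase Ulk2 lay at 0.09 ± 0.12, and Atg13, the regulatory subunit, at 0.005 ± 0.08.

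Nucleation follows, in which the class III PI3-kinase complex makes the lipid that recruits later factors. The genes of its core subunits had positive ratios of moderate size, and the step's median was 0.42. Becn1, the platform subunit, gave 477 (KO) and 310.3 (WT) with KO in Cy5 and 476 and 320.2 with KO in Cy3. The ratio of 0.60 ± 0.03 was nearly the same on both arrays. Pik3c3 (Vps34), the catalytic subunit, gave 402 against 259 and 355 against 255, which is 0.55 ± 0.11, and its second probe gave 0.49. Atg14, which directs the complex to autophagosome formation, gave 377 against 235 and 319 against 243, or 0.54 ± 0.20. KO values lay above WT values without overlap for each of these genes, as they did for 35.5% of all measured genes. None of them reached 1.5-fold on both arrays. Pik3r4 (Vps15), the regulatory subunit, was spotted 10 times on each array and had a ratio of 0.42 (KO in Cy5) and 0.18 on the other array. All 3 of Becn1, Pik3c3 and Atg14 stayed above 0 under median centring, at 0.21, 0.22 and 0.22, and Pik3r4 did not (−0.07).

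The other nucleation genes did not share this. Ambra1, a scaffold that binds Becn1, gave 695 (KO) and 906 (WT) with KO in Cy5 and 657 and 826 with KO in Cy3. Both KO values lay below both WT values (−0.36 ± 0.04). Uvrag, which replaces Atg14 in a form of the complex that acts on endosomes and autophagosome maturation, was at −0.06 ± 0.05. Its probe lies 3.02 Mb from that of Lamtor1 on chromosome 7, and the 106 measured genes within 5 Mb of that probe had a median of −0.30, with 10 lower and 0 higher by the 2-fold rule (6.88% and 2.46% of all measured genes).

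Membrane supply holds the factors that read the lipid mark and feed the growing membrane. All 7 were measured, 6 were above 0 on both arrays, and their means lay in a narrow range from 0.02 to 0.34. Atg9a, a lipid scramblase carried on the seed vesicles, had the highest mean (0.34 ± 0.16), with 261 against 192 and 257 against 219. Wdr45 (WIPI4), a partner of the Atg2 proteins, gave 1207 against 1009 and 1147 against 954, and its ratio was nearly the same on both arrays (0.26 and 0.27). The lipid transfer protein gene Atg2a was at 0.52 (KO in Cy5) and 0.11 on the other array, and its relative Atg2b at 0.14 and 0.05. Vmp1, an ER scramblase, showed the same kind of gap, 0.40 and 0.04. Wipi1 and Wipi2, which bind the lipid mark, lay at 0.14 ± 0.10 and 0.02 ± 0.07. Under median centring only Wipi1 and Atg9a of this step stayed above 0 (0.07 and 0.06).

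Lipid conjugation had a median of −0.11, with 2 of 10 measured members above 0 on both arrays, 6 below and 2 mixed, where 38.6% of all measured genes were above and 44.3% below. The 27 measured members outside it had a median of 0.31, with 20 above and 4 below. On the 2 arrays the conjugation median was −0.12 and −0.05, so its distance from the all-gene median was small on each. Relative to the all-gene median it was at −0.15 under median centring, where initiation, nucleation, membrane supply, Atg8 proteins and receptors were at 0.20 to 0.71 and Tecpr1, alone in its step, at −0.45. The 0.71 is the Atg8 median, which was the value of Map1lc3a, whose probe is dim. Atg16l1, which brings the conjugation machinery to the membrane, was the highest member of lipid conjugation, with 541 (KO) and 319 (WT) with KO in Cy5 and 412 and 317 with KO in Cy3 (0.57 ± 0.27). Atg7, the E1-like enzyme that activates both Atg12 and the Atg8 proteins, gave 266 against 209 and 266 against 206. Its 0.36 ± 0.02 held on both arrays for the brightest probe, but its other probe gave 0.07, with opposite signs on the 2 arrays.

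The rest of the Atg12 branch lay at or below 0. Atg12, the ubiquitin-like protein that is joined to Atg5, gave 1042 (KO) and 1353 (WT) with KO in Cy5 and 1108 and 1312 with KO in Cy3. Its ratio was −0.31 ± 0.09, and its second probe gave −0.32. The acceptor Atg5 was at −0.19 ± 0.10, the E2-like enzyme of this branch, Atg10, at −0.17 ± 0.05, and the E2-like enzyme of the Atg8 branch, Atg3, at −0.10 ± 0.12. Atg16l2, a relative of Atg16l1 whose probe lies 0.62 Mb from that of Lamtor1, was at −0.13 ± 0.16. For each of these 5 genes both arrays gave a ratio below 0.

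The Atg4 proteases trim Atg8 proteins before conjugation and release them from membranes afterwards. Atg4b, regarded as the most active of them, was at 0.08 ± 0.13, and Atg4d at −0.005 ± 0.12. Atg4c gave 94.4 (KO) and 118 (WT) with KO in Cy5 and 88.9 and 136 with KO in Cy3, or −0.46 ± 0.20. In KO it cleared the background on 1 array, and its size moved with the background handling, to −1.08 with the scanner software's processed signals. Atg4a was not well above background in either RNA.

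The Atg8 genes carried the widest range of ratios. The longest run shared by any pair of their probes from different genes was 5 to 7 bases of 60. No probe used for a member shared 20 or more bases with a probe of another gene. Probes were compared only with each other and not with transcripts. Whether a probe also binds the RNA of a related gene was therefore not tested. Gabarap gave 10903 (KO) and 5152 (WT) with KO in Cy5 and 12549 and 5026 with KO in Cy3. Both KO values were far above both WT values, 2.30-fold on average (log2 ratio 1.20 ± 0.17, above 98.1% of all measured genes). The brightest probe lies at chr11:69806585-69806644 (mm9). The second probe, at chr11:69806095-69806154 on the plus strand, gave 1.27 and 1.44. Its sequence is shown because a separate stretch of the transcript gave a difference of like size (no base is marked).

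Gabarap, second probe: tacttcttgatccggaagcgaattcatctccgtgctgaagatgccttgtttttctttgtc

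Map1lc3b, which encodes LC3B, the protein most used as an autophagosome marker, gave 3292 (KO) and 1408 (WT) with KO in Cy5 and 3139 and 1545 with KO in Cy3. It was 2.18-fold higher in KO (1.12 ± 0.14), from a probe at chr8:124121771-124121830 (mm9) that was spotted 10 times on each array with a spot SD of 0.04 and 0.03. Map1lc3a, its close relative, gave 149 against 103 and 144 against 112 (0.45 ± 0.11). This probe is dim, and its ratio moved to 1.07 with the processed signals. The gap between Map1lc3b and Map1lc3a was thus 0.68 ± 0.03 in the main setting but 0.21 under median centring and 0.17 with the processed signals. The median of the Atg8 step equalled the Map1lc3a ratio in each of these settings.

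Within the GABARAP family the genes diverged. Gabarapl1 gave 2967 (KO) and 4136 (WT) with KO in Cy5 and 2666 and 3963 with KO in Cy3, at chr6:129492254-129492313 (mm9). Both KO values were below both WT values, 1.44-fold on average (−0.53 ± 0.07). This was the lowest ratio of the set in the main setting, while Atg4c was lower with the processed signals (−1.08 against −0.46) and with a normexp offset of 1 (−0.94 against −0.48). Gabarapl2 (GATE-16) lay between, with 3623 against 3167 and 4159 against 2900.2 (0.36 ± 0.23). Differences between these ratios on the same array are not moved by a constant shift of all genes, though median centring was not such a shift. Gabarap exceeded Gabarapl1 by 1.56 and 1.89 on the log2 scale (mean 1.73 ± 0.23), and by 1.70 under each of the other settings, median centring and processed signals. Gabarapl2 exceeded Gabarapl1 by 0.88 ± 0.30, and Gabarap exceeded Gabarapl2 by 0.84 ± 0.06. The ranking Gabarap, Gabarapl2, Gabarapl1 was the same on each array under all 3 of these settings.

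**Figure D2:**
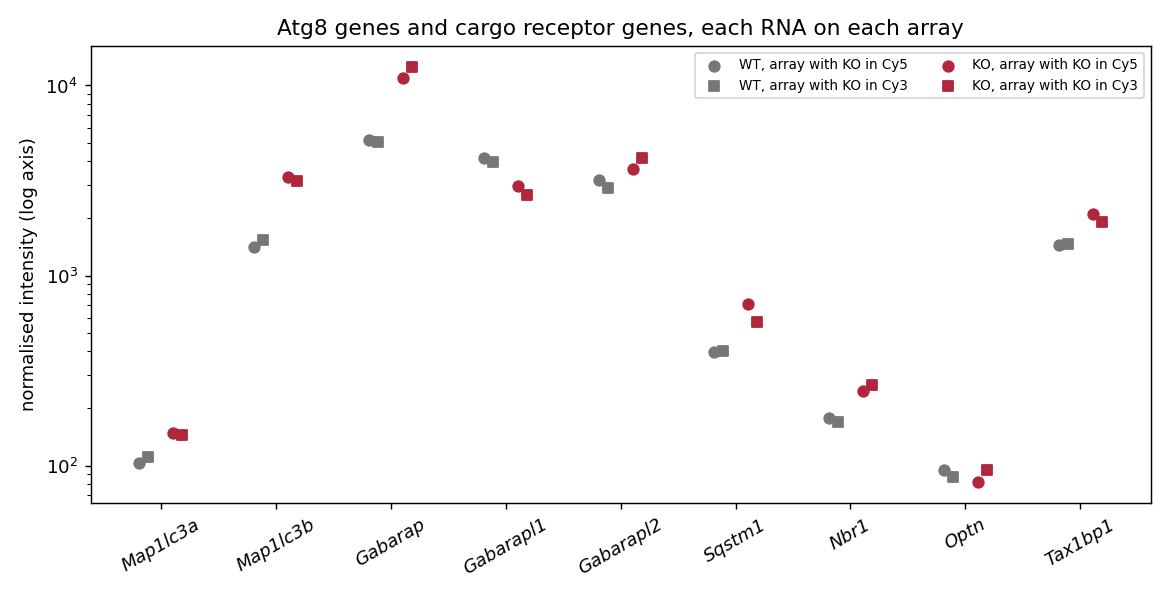
Normalised intensity (log axis, arbitrary units) of the 5 Atg8 genes and 4 cargo receptor genes in WT (grey) and KO (red) RNA, with circles for the array with KO in Cy5 and squares for the other; heights are not comparable between genes, since each has its own probe. Both KO points lie above both WT points for Gabarap (10903 and 12549 against 5152 and 5026) and below them for Gabarapl1 (2967 and 2666 against 4136 and 3963).

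Gaps between other related genes were smaller than that between Gabarap and Gabarapl1. Atg16l1 exceeded Atg16l2 by 1.01 and 0.40 on the 2 arrays (0.71 ± 0.43), and the gap was 0.89 under median centring and 0.82 with the processed signals. For Ulk1 and Ulk2 the gap was 0.61 on one array and −0.02 on the other, so the arrays do not order these kinases. For Wipi1 and Wipi2 (0.11 ± 0.16) and for Atg2a and Atg2b (0.22 ± 0.23) the gap was no larger than its technical SD. Atg4b and Atg4d exceeded Atg4c by 0.55 ± 0.07 and 0.46 ± 0.09, and by 1.31 and 1.18 with the processed signals, with the limit on Atg4c given above.

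**Figure D3:**
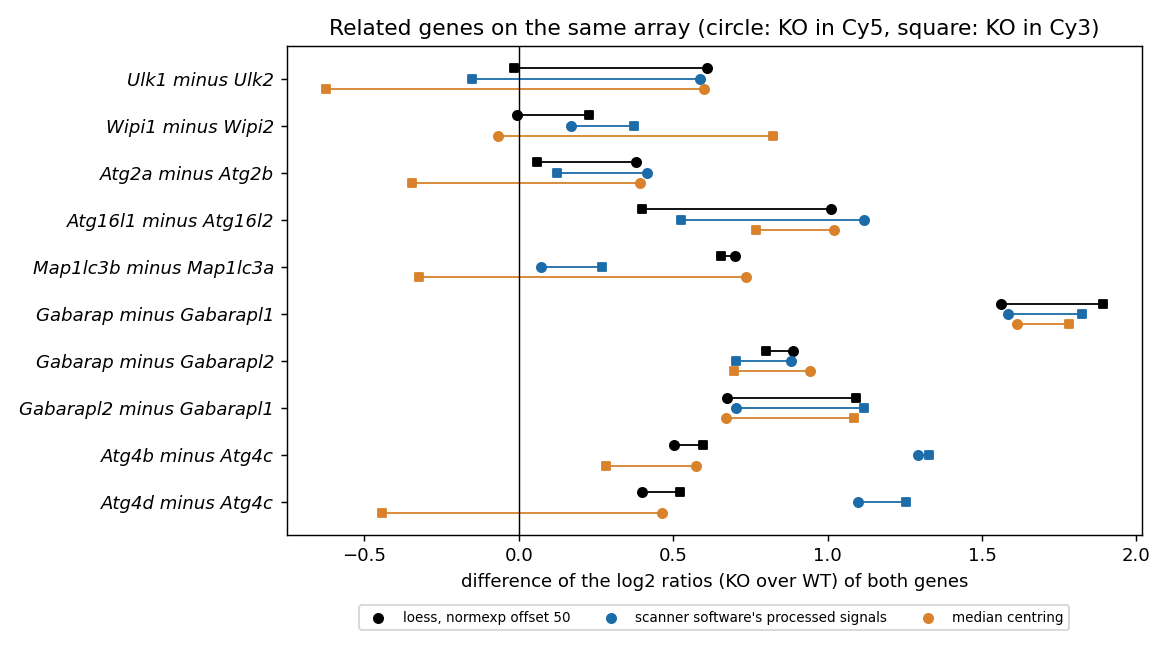
Difference between the log2 ratios (KO over WT) of related autophagy genes on the same array (circles, KO in Cy5; squares, KO in Cy3), in the main setting (black), from the scanner software's processed signals (blue) and after median centring (orange). The gap between Gabarap and Gabarapl1 stays near 1.7 in every setting (1.73, 1.70 and 1.70), whereas that between Map1lc3b and Map1lc3a falls from 0.68 to 0.17 and 0.21.

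Cargo receptors link ubiquitin-tagged material to Atg8 proteins. Their median was 0.51, and 3 of 4 lay above 0 on both arrays. Sqstm1 (p62), itself degraded by autophagy as a protein, gave 712 (KO) and 395 (WT) with KO in Cy5 and 572 and 399 with KO in Cy3. Its ratio of 0.69 ± 0.23 (1.61-fold) was the third highest of the set in the main setting, though not with the processed signals, where Map1lc3a was higher, or under median centring, where Map1lc3a and Nbr1 were. It passed 1.5-fold on the first array (0.85) and missed it on the second (0.52). Its 60-base probe, at chr11:50015985-50016044 (mm9, minus strand), is shown as the probe of the highest receptor (no base is marked).

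Sqstm1, probe: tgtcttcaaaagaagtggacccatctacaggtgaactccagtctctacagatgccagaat

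Nbr1, a receptor related to Sqstm1, gave 248 against 178 and 264 against 170.4, or 0.56 ± 0.11. Tax1bp1, which also dampens NF-κB signalling, gave 2099.8 against 1441 and 1905 against 1472, or 0.46 ± 0.12. KO values lay above WT values without overlap for Sqstm1, Nbr1 and Tax1bp1, as they did for 35.5% of all measured genes. Optn, a receptor for damaged mitochondria and bacteria, was near the background in KO on 1 array and had opposite signs on the 2 arrays (−0.21 and 0.12). Tecpr1, which tethers autophagosomes to lysosomes, gave 7924 against 9757 and 7913 against 8550.1, a ratio of −0.21 ± 0.13.

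Promoters were searched for motifs of factors known to regulate autophagy genes, over 250 bases before to 50 after the annotated start (RefSeq, GRCm38.p6), on both strands. Entries were found for 32 of the 38 members, with 38 promoters, and not for Atg12, Map1lc3a, Becn1, Pik3c3, Atg16l1 and Rb1cc1. The E-box CACGTG, the core that Tfeb and its relatives bind, was present in 4 members (Atg3, Atg5, Atg7 and Atg14), or 4 of the 38 member promoters, against 7.15% of all 32851 promoters. The CLEAR element, a longer palindrome that contains this core, was counted only as an exact match to the full palindrome. Such a match was in none of the member promoters and in 0.326% of all. Variant forms of the element, including those around the E-boxes found here, were not searched for. Whether member promoters hold CLEAR-like sites was therefore not tested. The Foxo motif GTAAACA (3.65% of all) and the Atf4 motif TGATGNAA (3.97% of all) were also in none of the member promoters. At such shares few of 38 promoters would hold either motif. Variant forms of these motifs were not searched for either, so whether member promoters hold such sites was not tested. Of the 4 genes with the E-box, 2 had positive ratios (Atg14 and Atg7, 0.54 and 0.36) and 2 negative ones (Atg5 and Atg3, −0.19 and −0.10).

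The 250 bases before the start are shown for the pair of genes called higher, for Gabarapl1, and for Atg3, the member with more than 1 E-box. Capitals mark the E-boxes, which begin 94 and 71 bases before the start of Atg3, and the other windows shown hold none of the 4 motifs. All are on the plus strand of GRCm38.p6: Gabarap at chr11:69991120-69991369, Map1lc3b at chr8:121590188-121590437, Gabarapl1 at chr6:129532942-129533191 and Atg3 at chr16:45158579-45158828.
Gabarap: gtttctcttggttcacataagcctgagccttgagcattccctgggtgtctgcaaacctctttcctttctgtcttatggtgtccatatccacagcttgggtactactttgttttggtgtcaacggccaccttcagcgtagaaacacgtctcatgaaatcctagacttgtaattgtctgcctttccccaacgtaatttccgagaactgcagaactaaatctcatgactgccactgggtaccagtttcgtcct
Map1lc3b: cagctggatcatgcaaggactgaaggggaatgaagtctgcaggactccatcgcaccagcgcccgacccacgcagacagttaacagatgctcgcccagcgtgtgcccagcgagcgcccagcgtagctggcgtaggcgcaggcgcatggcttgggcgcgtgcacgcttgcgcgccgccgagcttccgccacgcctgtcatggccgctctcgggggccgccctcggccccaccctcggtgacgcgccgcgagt
Gabarapl1: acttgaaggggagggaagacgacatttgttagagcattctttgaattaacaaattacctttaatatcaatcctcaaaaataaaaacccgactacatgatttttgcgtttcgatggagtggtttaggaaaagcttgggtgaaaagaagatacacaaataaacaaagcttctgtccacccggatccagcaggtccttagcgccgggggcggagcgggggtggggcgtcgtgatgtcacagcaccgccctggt
Atg3: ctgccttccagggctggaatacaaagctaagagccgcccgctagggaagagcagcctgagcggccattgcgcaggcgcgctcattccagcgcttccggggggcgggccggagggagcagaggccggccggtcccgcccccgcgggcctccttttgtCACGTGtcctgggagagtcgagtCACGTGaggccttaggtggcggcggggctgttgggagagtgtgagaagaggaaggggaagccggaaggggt

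Other genes around the core machinery were followed as 4 lists. The list for fusion of autophagosomes with lysosomes had the highest median (0.46 over 23 measured genes), 82.6% of it above 0 on both arrays against 38.6% of all measured genes. None of it reached 2-fold on both arrays. At 1.5-fold 3 were higher and none lower, against 6.78% and 13.5% of all measured genes. These were Lamp2, a lysosomal membrane protein (1.07 ± 0.13), and Vps11 and Vps41, subunits of the HOPS tether that joins lysosomes to incoming membranes (0.82 ± 0.01 and 0.70 ± 0.10). Under median centring these were at 0.61, 0.34 and 0.23.

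Selective receptors and adaptors outside the core set had a median of 0.26 over 22 measured genes, and 1 was higher and 2 lower at 2-fold (2.46% and 6.88% of all measured genes). Pink1, the kinase that marks damaged mitochondria, was higher (1.32 ± 0.03, but 0.79 under median centring). Bnip3, a mitophagy receptor and a known target of hypoxia-inducible factors, was lower by far (−2.51 ± 0.13), and so was the co-chaperone Bag3 (−1.23 ± 0.04). Rtn3, an ER-phagy receptor, was lower at 1.5-fold (−0.71 ± 0.11). Median centring and the processed signals gave these genes the same directions.

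Among 22 measured upstream regulators (median 0.14), 2 were higher and none lower at 2-fold (2.46% and 6.88% of all measured genes). Flcn, which with its partner controls TFE factors through the Rag GTPases, was higher (1.86 ± 0.33). So was Spns1, a lysosomal lipid transporter (1.64 ± 0.07). Foxo1, a transcription factor that induces autophagy genes, was higher at 1.5-fold (0.72 ± 0.18, but 0.16 under median centring). The TFE family member Mitf was lower at 1.5-fold (−0.88 ± 0.26, but −1.70 with the processed signals). In KO its probe was well above background on 1 array only. Tfeb, named here after its value was seen because its core motif was searched, was at −0.16 ± 0.08. Regulators of the early steps had a median of −0.05 over 19 measured genes. Of these, Snx30, a sorting nexin, was higher at 1.5-fold (1.01 ± 0.02), and Ei24 (−0.83 ± 0.20) and Trp53inp1 (−0.64 ± 0.02) were lower at 1.5-fold. At this size 6.78% of all measured genes were higher and 13.5% lower.

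**Figure D4:**
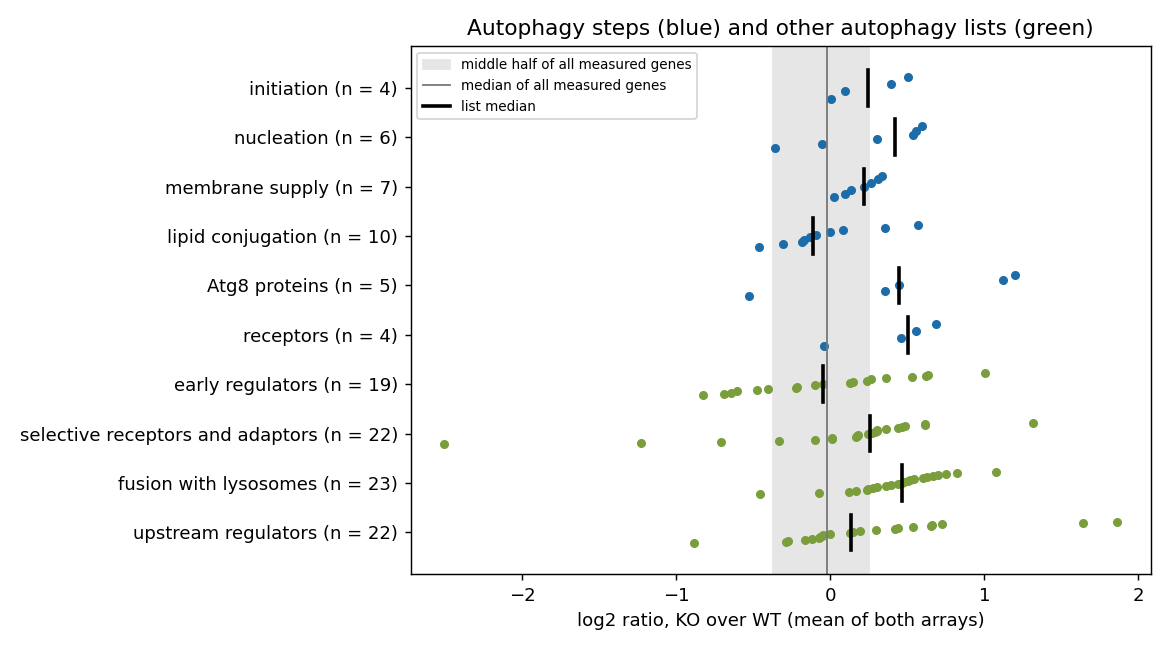
Mean log2 ratio (KO over WT) of each measured gene in 6 autophagy steps (blue) and 4 lists of other autophagy genes (green), with each list's median as a black bar, the 25th to 75th percentile of all measured genes as the grey band and their median (−0.02) as the grey line. The medians of receptors (0.51), Atg8 proteins (0.45), nucleation (0.42), fusion (0.46) and selective receptors and adaptors (0.26) lie right of the band (upper edge 0.25). Those of initiation (0.24), membrane supply (0.22), upstream regulators (0.14), early regulators (−0.05) and lipid conjugation (−0.11) lie inside it.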

How the data were processed

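Agilent whole mouse genome arrays (2 colours) were read with Feature Extraction 10.7.3.1 per the file headers, and 10.5.1.1 per the submitters' processing notes. Each deposited scanner file gives a spot's mean and background intensity and a processed intensity, per the file headers. The authors' series matrix gives the log10 ratio (Cy5 over Cy3), equal to the scanner software's in all 44397 values per array (tolerance 1e-09).

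From these, mean intensities were corrected with normexp (offset 50, which shrinks ratios of dim probes) and loess-normalized within each array in limma 3.58.1 (R 4.3.3). Control spots and outlier spots (206 and 214) were left out, and spots of a probe averaged. The labelled dyes set the direction, KO over WT. Normalised intensities are the channel values after loess and then Aquantile scaling between the arrays. Probes were named through their accessions (RefSeq, GRCm38.p6), and 3 members were listed under older names. No spot was saturated, and 43.7% to 51.7% were well above background per RNA and array, which with 2 arrays limits the precision. All members are named, of the other autophagy lists those past 1.5-fold, and Tfeb. The members and lists were chosen with earlier results of these data known. Scripts were tested on simulated data.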

Additional observations from a re-analysis of the deposited data

How the results depend on the processing

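Of 37 members, 21 kept the sign of their log2 ratio under every alternative run for them (11, or 10 for Atg4c and Optn, which the stricter filter removes; 13 above 0, 8 below), and 9 changed it under median centring alone. Kept signs were not counted over all measured genes. The alternatives are not separate checks, since the processed signals and the series matrix gave equal values. Median centring moved the all-gene median down to −0.37, which is away from a change of sign for members below 0. Gabarap and Map1lc3b were at least 2-fold higher under every alternative except median centring, which left 0 members, and no alternative gave a member 2-fold lower. No paired analysis was possible because each genotype had 1 RNA extract. Dim probes limit the size of some ratios, such as those of Map1lc3a and Atg4c.

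Median log2 ratios moved beyond the technical SD as follows, and the cause was not tested. Over all members the median was 0.37 with either the processed signals or the series matrix, 0.27 with offset 1, −0.11 under median centring, 0.18 with no filter on dim probes, and 0.26 both with the stricter filter and without the 2 members within 5 Mb of Lamtor1. Under median centring initiation was at −0.17, nucleation at 0.070, membrane supply at −0.057, lipid conjugation at −0.53, Atg8 proteins at 0.34 and receptors at 0.11. With the processed signals, and equally with the series matrix, these were 0.39, 0.65, 0.37, −0.015, 1.07 and 0.71. With offset 1 initiation was at 0.30, Atg8 proteins at 0.78 and receptors at 0.64. With the stricter filter receptors were at 0.56. Without background subtraction Atg8 proteins were at 0.47, against 0.45 in the main setting. That small move is listed only because the SD of the 2 array medians of this step was 0.004.

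On either array alone the median was 0.17 to 0.24 for initiation, 0.28 to 0.52 for nucleation, 0.11 to 0.26 for membrane supply, −0.12 to −0.054 for lipid conjugation, 0.52 to 0.53 for Atg8 proteins, 0.45 to 0.51 for receptors and 0.17 to 0.19 for all members.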
